A study of Mus musculus with 24 samples.

Results

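The transcripts described are those of the α-arrestins *Txnip*, *Arrdc1*, *Arrdc2*, *Arrdc3* and *Arrdc4*, which were found by gene symbol in a table of read counts for 49315 genes. All 5 passed the filter on low counts, as did 16070 genes in all. The cells were MS03, an immortalized murine Schwann cell line made from *Nf2* flox/flox cells by infection with Cre, and every group therefore carries the *Nf2*-/- genotype of this single line. They were exposed for 24 hours to DMSO, to the FAK kinase inhibitors defactinib, VS-4718, GSK2256098 or IN10018 (ifebemtinib) at 1 μM each, or to a PROTAC against FAK, namely PROTAC FAK degrader 1 at 1 μM, GSK215 at 0.1 μM or BSJ-04-0146 at 0.1 μM. FAK is the focal adhesion kinase encoded by *Ptk2*, and a PROTAC is a molecule that brings its target to a ubiquitin ligase for degradation. Each of the 8 groups had 3 libraries labelled as biological replicates, all from 1 cell line, so that the tests measure the spread between cultures of that line.

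α-Arrestins are adaptor proteins with an arrestin fold. Through PY motifs in their tails, most of them recruit HECT ubiquitin ligases of the NEDD4 family to membrane proteins, which are then internalized and sorted. TXNIP also binds thioredoxin and limits glucose uptake by promoting internalization of the glucose transporter GLUT1, and its gene is a classical target of the glucose-sensing factors MondoA and ChREBP, which act with MLX through carbohydrate response elements. ARRDC4 is the closest relative of TXNIP and shares much of this regulation, ARRDC1 drives the budding of small vesicles from the plasma membrane, and ARRDC3 has been linked to trafficking of the β2-adrenergic receptor and integrin β4. Less is known of ARRDC2.

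In GENCODE M21 on GRCm38, *Txnip* (ENSMUSG00000038393) lies at chr3:96557957-96561883 on the plus strand, *Arrdc1* (ENSMUSG00000026972) at chr2:24925352-24935252 on the minus strand, *Arrdc2* (ENSMUSG00000002910) at chr8:70835129-70839720 on the minus strand, *Arrdc3* (ENSMUSG00000074794) at chr13:80883384-80896042 on the plus strand and *Arrdc4* (ENSMUSG00000042659) at chr7:68736995-68749241 on the minus strand. The promoters of *Txnip* and *Arrdc4* are shown because their transcripts had the largest increases of the 5 described here. Each is the 250 bases before the RefSeq start site on GRCm38.p6 (*Txnip* chr3:96557707-96557956, plus strand, and *Arrdc4* chr7:68749239-68749488, minus strand), read 5′ to 3′ on the gene's strand. Capitals mark every match, on either strand, to the E-box CACGTG, the half-site CACGAG, the CCAAT box (ATTGG when read on the other strand) and the forkhead element GTAAACA, and no match overlapped another.
Txnip: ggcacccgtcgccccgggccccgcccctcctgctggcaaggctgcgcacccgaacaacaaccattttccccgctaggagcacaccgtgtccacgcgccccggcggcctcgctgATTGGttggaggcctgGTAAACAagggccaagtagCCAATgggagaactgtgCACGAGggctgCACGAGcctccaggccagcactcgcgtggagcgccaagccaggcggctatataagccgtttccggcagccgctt
Arrdc4: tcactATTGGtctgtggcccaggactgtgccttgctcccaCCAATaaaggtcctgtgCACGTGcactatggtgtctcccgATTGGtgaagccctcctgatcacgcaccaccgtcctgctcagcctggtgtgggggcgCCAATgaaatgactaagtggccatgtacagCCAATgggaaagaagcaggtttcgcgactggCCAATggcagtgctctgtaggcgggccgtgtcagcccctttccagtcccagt
The *Txnip* promoter held a pair of CACGAG half-sites with 5 bases between them, from -85 to -69 relative to the start site, the spacing of a carbohydrate response element. It also held 2 CCAAT boxes and 1 GTAAACA from -121 to -115. Of 32851 RefSeq promoters of the same length, this was the only one with that pair (0.00304%), whereas 5.37% held at least 1 CACGAG, 3.17% held GTAAACA and 33.8% held a CCAAT box. The motifs were chosen with the *Txnip* sequence in view, so that a match in *Txnip* was fixed in advance. Only this exact pair was searched. How many promoters hold pairs of other half-sites at that spacing was not counted. The *Arrdc4* promoter held 1 CACGTG from -193 to -188, which was present in 6.02% of promoters, and 6 CCAAT boxes, where 2.79% of promoters had 3 or more. *Arrdc2* had 3 CCAAT boxes and 1 CACGAG, *Arrdc1* had 2 CACGAG and no CCAAT box, and *Arrdc3* had 1 CCAAT box before 2 of its 3 start sites. These matches describe letters in a window and show no binding.

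Libraries held between 14472462 and 27449516 counts, and each of the 9 PROTAC libraries was below every DMSO library. Levels are given in CPM, the counts of a gene scaled to a common library total after adjusting library sizes by the trimmed mean of M values (TMM). The level of *Ptk2*, the gene of the drugs' target protein, moved by -0.29 to 0.03 on the log2 scale against DMSO, which says nothing of the protein. All 8 Schwann lineage markers examined passed the filter, although *S100b* had at most 18 counts, and their summed level was 56.1 to 59.6 CPM with DMSO, 50.3 to 56.9 CPM with PROTAC FAK degrader 1, 235 to 247 CPM with GSK215 and 213 to 233 CPM with BSJ-04-0146. With the kinase inhibitors it was 78.4 to 87.3 CPM (defactinib), 116 to 131 CPM (VS-4718), 78.3 to 82.1 CPM (GSK2256098) and 58.7 to 61.2 CPM (IN10018). Among 4 macrophage markers, *Ptprc* and *Adgre1* had at most 1 count in any library, and the summed level was 3.48 to 4.00 CPM with DMSO and 10.8 to 11.7 CPM with PROTAC FAK degrader 1, mostly from *Cd68*. It was 5.93 to 7.62 CPM with GSK215, 7.60 to 9.04 CPM with BSJ-04-0146, 4.36 to 5.05 CPM with defactinib, 4.82 to 6.02 CPM with VS-4718, 4.03 to 4.15 CPM with GSK2256098 and 3.61 to 4.34 CPM with IN10018. The endothelial list summed to at most 0.570 CPM. Of the 4 fibroblast markers *Lum* was at 0 in every library, *Dcn* reached 3 counts at most, *Pdgfra* stood at 8.55 to 27.9 CPM and *Col1a1* was abundant (282 to 502 CPM). Their sum was 395 to 414 CPM with DMSO, 291 to 297 CPM with PROTAC FAK degrader 1, 470 to 476 CPM with GSK215, 361 to 393 CPM with BSJ-04-0146 and 383 to 515 CPM over the kinase inhibitors. Mitochondrial transcripts took 1.85 to 1.89% of counts with PROTAC FAK degrader 1, 3.03 to 3.06% with DMSO, 3.83 to 4.25% with GSK215 and 3.34 to 4.10% with BSJ-04-0146. The share was 3.42 to 3.89% with defactinib, 3.22 to 3.35% with GSK2256098, 3.01 to 3.14% with VS-4718 and 2.62 to 2.80% with IN10018. The part of these differences in the results below was not tested.

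In DMSO-treated cells, *Txnip* was the most abundant α-arrestin per length, at 8.39 ± 0.150 RPKM (CPM per kilobase of exon, SD, n = 3). It was followed by *Arrdc1* at 4.17 ± 0.0847, *Arrdc3* at 3.36 ± 0.249, *Arrdc2* at 3.05 ± 0.291 and *Arrdc4* at 0.920 ± 0.0682 RPKM. *Arrdc3* and *Arrdc2* were closer than their SDs combined. With PROTAC FAK degrader 1, the order began with *Txnip* (47.1 ± 1.61 RPKM) and *Arrdc3* (7.55 ± 0.0941 RPKM), followed by *Arrdc1* (6.23 ± 0.661 RPKM), *Arrdc2* (4.71 ± 0.283 RPKM) and *Arrdc4* (2.93 ± 0.317 RPKM).

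*Txnip* transcripts rose with 6 of the 7 drugs, most with the PROTACs, and GSK2256098 was the exception. The DMSO libraries stood at 25.8, 26.7 and 26.1 CPM and those with PROTAC FAK degrader 1 at 146, 153 and 143 CPM. With GSK215 they stood at 72.5, 71.5 and 73.8 CPM, and with BSJ-04-0146 at 73.8, 76.9 and 74.2 CPM. Every PROTAC library was thus above every kinase inhibitor library, with a wide gap between PROTAC FAK degrader 1 and the other two, which were used at a lower dose. The libraries stood at 36.1, 36.9 and 34.8 CPM with defactinib, at 38.1, 35.8 and 40.9 CPM with VS-4718 and at 33.2, 32.3 and 33.4 CPM with IN10018. These 9 libraries were also above all DMSO libraries. Those with GSK2256098 stood at 23.9, 27.02 and 23.9 CPM, on both sides of DMSO. The log2 fold change against DMSO was 2.49 (SE 0.0454, adjusted p = 2.5e-34) with PROTAC FAK degrader 1, a 5.61-fold higher level that ranked 175th in size of the 16070 genes. It was 1.47 (SE 0.0487, adjusted p = 1.58e-25) with GSK215 and 1.52 (SE 0.0487, adjusted p = 5.09e-26) with BSJ-04-0146, or 2.77-fold and 2.86-fold. The kinase inhibitors gave smaller increases, of 0.55 (SE 0.0507, adjusted p = 1.93e-11) with VS-4718, 0.45 (SE 0.0517, adjusted p = 2.12e-08) with defactinib and 0.33 (SE 0.0529, adjusted p = 3.06e-05) with IN10018. With GSK2256098 the value was -0.07 (95% confidence interval -0.18 to 0.04, adjusted p = 0.475). In the order of levels, BSJ-04-0146 and GSK215, VS-4718 and defactinib, and DMSO and GSK2256098 were neighbours whose libraries overlapped.

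*Txnip* shares 606 exon bases with the antisense gene *Gm15441*, and whether reads were counted by strand is not given in the sources used here, so that reads of both genes cannot be told apart in that stretch. *Gm15441* itself had 1 to 14 counts per library, against 529 to 3178 for *Txnip*. Its mean level was 0.237 CPM with DMSO, 0.468 CPM with PROTAC FAK degrader 1, 0.378 CPM with GSK215 and 0.548 CPM with BSJ-04-0146, and of the 7 drugs it passed the test only with BSJ-04-0146 (log2 fold change 1.22, SE 0.496, adjusted p = 0.0353).

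**Figure D1:**
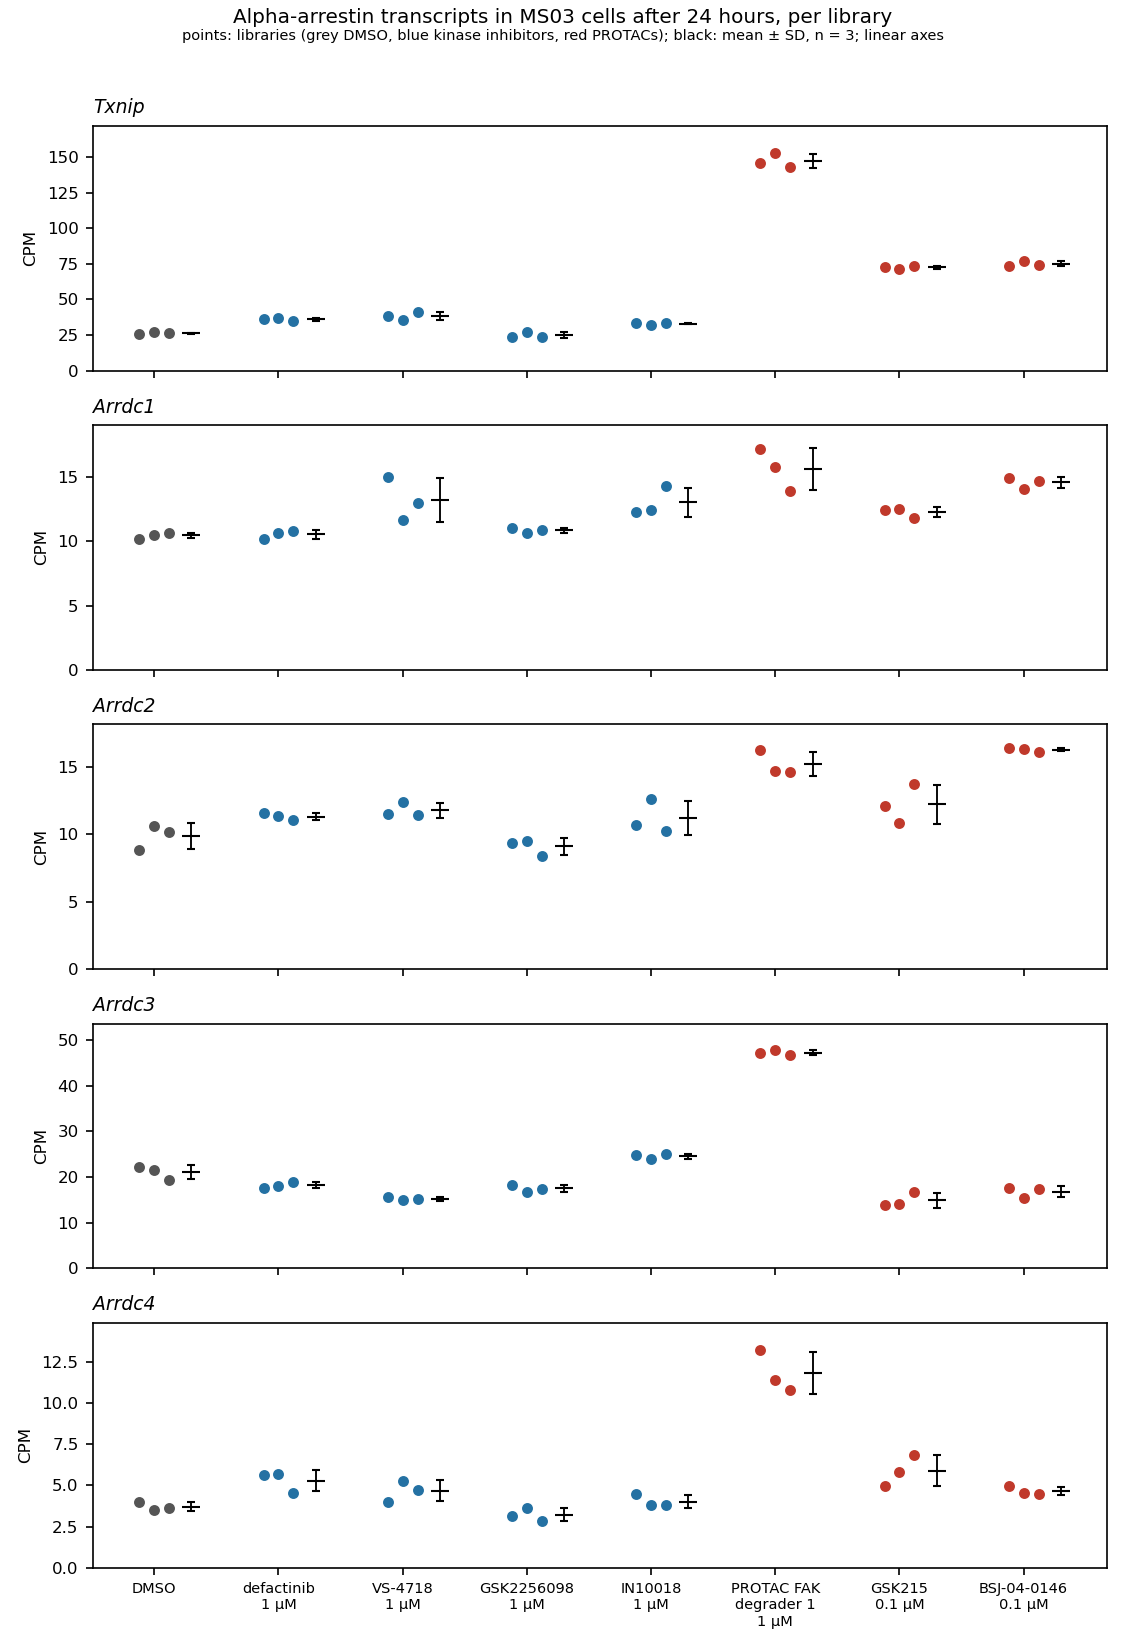
CPM of the 5 transcripts in each of the 24 libraries (points, linear axes from 0) by treatment, with the mean and SD of 3 libraries in black. *Txnip* stands at 143 to 153 CPM with PROTAC FAK degrader 1 against 25.8 to 26.7 CPM with DMSO. *Arrdc3* is below its DMSO level with defactinib, VS-4718, GSK2256098, GSK215 and BSJ-04-0146.

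*Arrdc4*, the closest relative of *Txnip* and the least abundant of the 5, rose with defactinib, VS-4718 and all PROTACs. Its counts were low, 63 to 289 per library. The levels were 4.03, 3.50 and 3.63 CPM with DMSO and 13.3, 11.4 and 10.8 CPM with PROTAC FAK degrader 1. They were 4.99, 5.82 and 6.86 CPM with GSK215, 4.95, 4.55 and 4.49 CPM with BSJ-04-0146 and 5.63, 5.69 and 4.57 CPM with defactinib. None of these libraries reached down to the DMSO range, and those with PROTAC FAK degrader 1 were above all others. The log2 fold change against DMSO was 1.68 (SE 0.120, adjusted p = 1.57e-15) with PROTAC FAK degrader 1, 3.20-fold, 0.68 (SE 0.136, adjusted p = 4.32e-05) with GSK215 and 0.51 (SE 0.133, adjusted p = 0.00424) with defactinib. With VS-4718 (4.00, 5.28 and 4.75 CPM) the libraries overlapped those with DMSO and the value was 0.33 (SE 0.134, adjusted p = 0.0471). It was also 0.33 (SE 0.143, adjusted p = 0.0478) with BSJ-04-0146. Both of these calls lay at the threshold. The VS-4718 call was lost without any 1 of the 3 DMSO libraries or VS-4718 replicates 2 or 3 (0.24 to 0.38, adjusted p 0.0506 to 0.22), and the BSJ-04-0146 call without DMSO replicates 2 or 3 or any 1 BSJ-04-0146 library (0.29 to 0.35, adjusted p 0.0666 to 0.146). GSK2256098 gave -0.20 (95% confidence interval -0.49 to 0.09, adjusted p = 0.435) and IN10018 0.12 (-0.17 to 0.40, adjusted p = 0.658).

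*Arrdc3* was the only one of the 5 that passed the test with every drug, and its direction differed between them. It was higher with PROTAC FAK degrader 1 and IN10018 and lower with the other 5 drugs. The DMSO libraries stood at 22.3, 21.6 and 19.3 CPM, those with PROTAC FAK degrader 1 at 47.1, 47.9 and 46.8 CPM and those with IN10018 at 24.7, 24.0 and 25.0 CPM. With GSK215 the levels were 13.9, 14.0 and 16.7 CPM, with BSJ-04-0146 17.6, 15.4 and 17.4 CPM and with VS-4718 15.7, 14.9 and 15.2 CPM. With defactinib they were 17.6, 18.2 and 19.0 CPM and with GSK2256098 18.4, 16.8 and 17.4 CPM. No treated library of any drug lay within the DMSO range. The log2 fold change was 1.17 (SE 0.0588, adjusted p = 3.02e-20) with PROTAC FAK degrader 1, 2.24-fold, and 0.22 (SE 0.0631, adjusted p = 0.0148) with IN10018. The decreases were -0.49 (SE 0.0706, adjusted p = 1.55e-07) with GSK215, or 1.41-fold lower, -0.46 (SE 0.0662, adjusted p = 3.65e-07) with VS-4718 and -0.33 (SE 0.0696, adjusted p = 9.52e-05) with BSJ-04-0146. They were -0.27 (SE 0.0658, adjusted p = 0.00454) with GSK2256098 and -0.21 (SE 0.0651, adjusted p = 0.0186) with defactinib. The defactinib call was lost without DMSO replicates 1 or 2 or defactinib replicate 1 (-0.19 to -0.17, adjusted p 0.0802 to 0.106). The IN10018 call was lost without DMSO replicate 3 or IN10018 replicates 1 or 3 (0.16 to 0.21, adjusted p 0.0558 to 0.141). PROTAC FAK degrader 1, IN10018 and DMSO stood apart from each other and from the rest, whereas defactinib, GSK2256098, BSJ-04-0146, VS-4718 and GSK215 each overlapped the next in order. The antisense gene *1700023H06Rik* overlaps the *Arrdc3* locus and shares 0 exon bases with it.

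The largest changes of *Arrdc1* and *Arrdc2* over the 7 drugs were smaller than those of the other 3 transcripts, and both moved only upward where they passed the test against DMSO. *Arrdc1*, whose product buds vesicles, stood at 10.2, 10.5 and 10.6 CPM with DMSO, 17.2, 15.8 and 13.9 CPM with PROTAC FAK degrader 1 and 15.0, 14.1 and 14.7 CPM with BSJ-04-0146. The log2 fold changes were 0.58 (SE 0.0837, adjusted p = 9.33e-08) and 0.48 (SE 0.0866, adjusted p = 1.01e-05). VS-4718 (15.0, 11.7 and 13.0 CPM) gave 0.34 (adjusted p = 0.000972), IN10018 (12.3, 12.5 and 14.3 CPM) 0.32 (adjusted p = 0.00931) and GSK215 (12.5, 12.6 and 11.8 CPM) 0.23 (adjusted p = 0.0268). The spread between replicates was widest with VS-4718 and PROTAC FAK degrader 1, and yet all libraries of these 5 drugs were above all with DMSO. The call with IN10018 was lost without its replicate 3 (0.24, adjusted p = 0.108), and that with GSK215 without DMSO replicate 1 or GSK215 replicates 1 or 2 (0.21 to 0.22, adjusted p 0.0643 to 0.082). Defactinib gave 0.01 (95% confidence interval -0.16 to 0.19) and GSK2256098 0.05 (-0.12 to 0.23). *Arrdc1* was the member closest to its DMSO level with these 2 inhibitors.

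*Arrdc2* was highest with BSJ-04-0146, at 16.4, 16.3 and 16.1 CPM, followed by PROTAC FAK degrader 1 at 16.3, 14.7 and 14.7 CPM, and the DMSO libraries stood at 8.82, 10.6 and 10.1 CPM. It was the only one of the 5 whose highest mean was not with PROTAC FAK degrader 1, although the libraries of these 2 PROTACs overlapped and their doses differed. The log2 fold changes were 0.72 (SE 0.0868, adjusted p = 3.85e-09) and 0.62 (SE 0.0858, adjusted p = 4.06e-08). GSK215 (12.1, 10.8 and 13.7 CPM) gave 0.31 (adjusted p = 0.00398), a call lost without its replicate 3 (0.20, adjusted p = 0.0912), and VS-4718 (11.5, 12.4 and 11.4 CPM) 0.25 (adjusted p = 0.0208), lost without DMSO replicate 1 (0.17, adjusted p = 0.178) or VS-4718 replicate 2 (0.21, adjusted p = 0.0888). Defactinib (0.19, 95% confidence interval 0.01 to 0.37, adjusted p = 0.123), IN10018 (0.18, -0.0048 to 0.36, adjusted p = 0.205) and GSK2256098 (-0.12, -0.30 to 0.07, adjusted p = 0.466) did not pass.

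**Figure D2:**
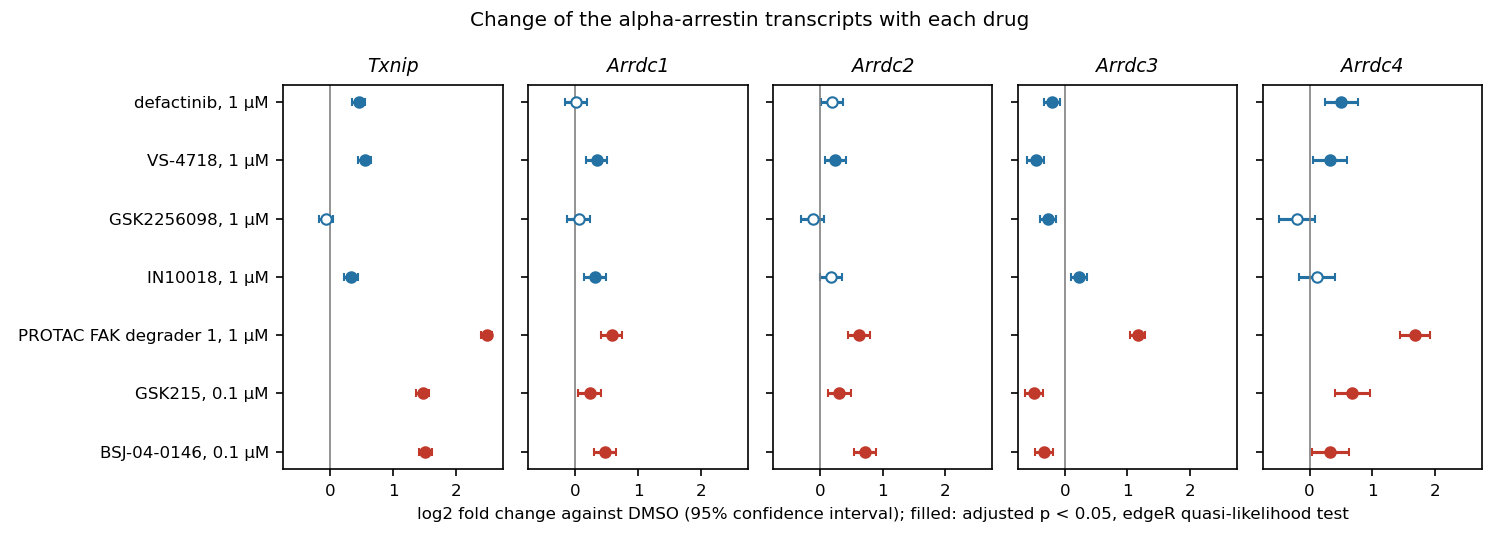
Log2 fold change of each transcript against DMSO (x axis, 95% confidence interval) for the 7 drugs, filled where the adjusted p was under 0.05. PROTAC FAK degrader 1 is to the right of 0 for all 5 transcripts, and *Arrdc3* is to the left of 0 with 5 drugs.

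Counted over the 5 transcripts, PROTAC FAK degrader 1 raised all 5, where 66.8% of all genes tested passed in either direction. GSK215 and BSJ-04-0146 each raised 4 and lowered *Arrdc3*, beside 54.7% and 54.6% of all genes. VS-4718 likewise raised 4 and lowered *Arrdc3* (39.2% of all genes). Defactinib raised *Txnip* and *Arrdc4* and lowered *Arrdc3* (22.4% of all genes), and IN10018 raised *Txnip*, *Arrdc1* and *Arrdc3* (13.3% of all genes). The count with VS-4718 went from 5 to 3 with DESeq2, without DMSO replicate 1 or without VS-4718 replicate 2. That with IN10018 went from 3 to 1 without IN10018 replicate 3. GSK2256098 changed *Arrdc3* alone, downward (12.5% of all genes). All 7 comparisons share the same 3 DMSO libraries. With library totals in place of TMM, the median over all genes of the log2 change went from 0.02 to 0.14 with GSK215 and from 0.02 to 0.13 with BSJ-04-0146. The share of all calls that were higher then went from 50.2% to 68.3% with GSK215, from 50.7% to 67.0% with BSJ-04-0146 and from 51.9% to 62.6% with VS-4718, and no direction or call of the 5 transcripts against DMSO changed.

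Drugs were compared with each other only at one dose, in 10 pairs at 1 μM and 1 pair at 0.1 μM. This made 55 tests of the 5 transcripts, with each p adjusted over the 16070 genes of its pair. PROTAC FAK degrader 1 exceeded each kinase inhibitor for all 5 transcripts, beside 68.9% of all genes that passed against defactinib, 68.9% against VS-4718, 67.6% against GSK2256098 and 63.5% against IN10018. For *Txnip* the log2 differences were 2.04 (SE 0.0437) from defactinib, 1.94 (SE 0.0429) from VS-4718, 2.56 (SE 0.0461) from GSK2256098 and 2.16 (SE 0.0447) from IN10018, with adjusted p of at most 5.62e-32. For *Arrdc4* they ran from 1.17 (from defactinib) to 1.88 (from GSK2256098), and for *Arrdc3* from 0.94 (from IN10018) to 1.63 (from VS-4718). They were smallest for *Arrdc1*, at 0.24 (adjusted p = 0.00791) from VS-4718 and 0.26 (adjusted p = 0.00517) from IN10018, where libraries overlapped. The difference from VS-4718 was lost without VS-4718 replicate 2 or PROTAC FAK degrader 1 replicate 1 (0.16 to 0.18, adjusted p 0.0803 to 0.0934), and that from IN10018 without the latter library (0.19, adjusted p = 0.0685).

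Among the kinase inhibitors, GSK2256098 gave less *Txnip* than defactinib (-0.52, SE 0.0525, adjusted p = 1.94e-09), VS-4718 (-0.62, SE 0.0516, adjusted p = 5.21e-12) and IN10018, which exceeded it by 0.40 (SE 0.0538, adjusted p = 3.36e-07). *Txnip* was lower with IN10018 than with VS-4718 (-0.22, SE 0.0499, adjusted p = 0.000492). Between VS-4718 and defactinib *Txnip* differed by 0.09 (95% confidence interval -0.01 to 0.19, adjusted p = 0.141), which passed without VS-4718 replicate 2 (0.14, adjusted p = 0.0413). Over the 6 fits with 1 library left out, that difference ran from 0.03 to 0.14 (adjusted p 0.0413 to 0.691). Between IN10018 and defactinib *Txnip* differed by -0.12 (-0.23 to -0.02, adjusted p = 0.0564). That last pair passed with library totals and with limma-trend (adjusted p 0.0393 and 0.0464). *Arrdc4* was also lower with GSK2256098 than with defactinib (-0.71, SE 0.138, adjusted p = 0.000398) and VS-4718 (-0.53, SE 0.139, adjusted p = 0.00344). *Arrdc3* was higher with IN10018 than with VS-4718 (0.68, SE 0.0658, adjusted p = 4e-11), GSK2256098 (0.49, SE 0.0654, adjusted p = 2.78e-07) and defactinib (0.43, SE 0.0648, adjusted p = 1.4e-06). Of the 5 transcripts, 2 passed between VS-4718 and defactinib (34% of all genes), 3 between GSK2256098 and defactinib (11.5%), 3 between IN10018 and defactinib (34.5%), 5 between GSK2256098 and VS-4718 (27.1%), 2 between IN10018 and VS-4718 (40.9%) and 4 between IN10018 and GSK2256098 (20.9%).

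With each library left out in turn, these counts ran from 1 to 3, from 2 to 3, from 1 to 3 and from 4 to 5 in the first 4 pairs and from 3 to 4 in the last, and the count between IN10018 and VS-4718 stayed at 2. *Arrdc1* lost its call between VS-4718 and defactinib (0.33) without VS-4718 replicate 1 (0.22, adjusted p = 0.0576), as it did between GSK2256098 and VS-4718 (-0.29) without the same library (-0.18, adjusted p = 0.148). Between IN10018 and defactinib *Arrdc1* (0.31) lost its call without IN10018 replicate 3 (0.23, adjusted p = 0.0602), and between IN10018 and GSK2256098 (0.27) without that library (0.19, adjusted p = 0.172) or GSK2256098 replicate 2 (0.25, adjusted p = 0.0739). *Arrdc2* lost its call between GSK2256098 and defactinib (-0.31) without defactinib replicate 1 (-0.29, adjusted p = 0.0738) or GSK2256098 replicate 3 (-0.26, adjusted p = 0.111). Between IN10018 and GSK2256098 *Arrdc2* (0.29) lost it without GSK2256098 replicate 3 (0.24, adjusted p = 0.0956) or IN10018 replicate 2 (0.20, adjusted p = 0.161). *Arrdc4* between IN10018 and defactinib (-0.39) lost its call without defactinib replicates 1 or 2 or IN10018 replicates 2 or 3 (-0.35 to -0.34, adjusted p 0.0746 to 0.0843). *Arrdc3* between GSK2256098 and VS-4718 (0.19) lost its call without VS-4718 replicates 2 or 3 or GSK2256098 replicates 1 or 3 (0.17 to 0.20, adjusted p 0.0552 to 0.131). The calls of *Txnip* in these pairs held with each library left out.

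At 0.1 μM, BSJ-04-0146 and GSK215 differed in *Txnip* by 0.05 (95% confidence interval -0.04 to 0.14, adjusted p = 0.517). BSJ-04-0146 gave more *Arrdc2* (0.41, SE 0.0881, adjusted p = 0.000535) and more *Arrdc1* (0.25, SE 0.0886, adjusted p = 0.0382), which makes 2 of 5 transcripts where 22.5% of all genes passed. The *Arrdc1* difference was lost without any 1 of the 6 libraries (0.22 to 0.27, adjusted p 0.0595 to 0.135). *Arrdc3* differed by 0.16 (0.0049 to 0.32, adjusted p = 0.139) and *Arrdc4* by -0.35 (-0.63 to -0.07, adjusted p = 0.0636). Without GSK215 replicate 3 the *Arrdc3* difference passed (0.26, adjusted p = 0.0249), as did that of *Arrdc4* without GSK215 replicate 1 (-0.45, adjusted p = 0.0273). Over the 6 fits with 1 library left out, *Arrdc3* ran from 0.11 to 0.26 (adjusted p 0.0249 to 0.427). *Arrdc4* ran from -0.45 to -0.22 (adjusted p 0.0273 to 0.353).

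**Figure D3:**
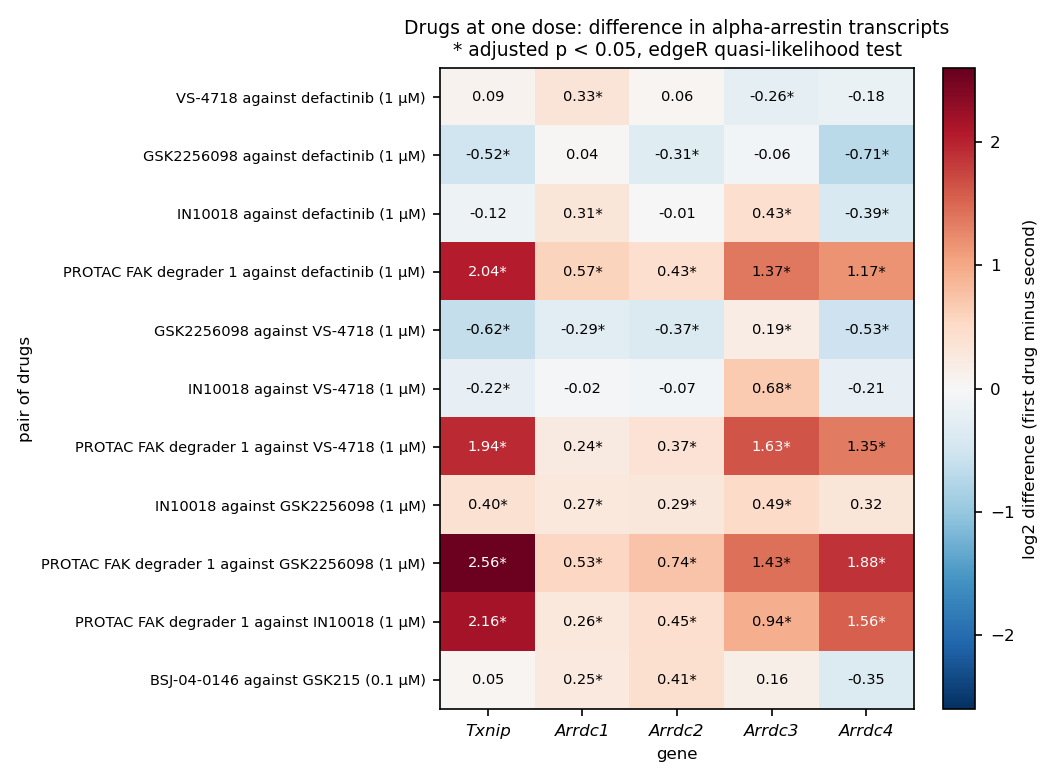
Log2 difference (colour and number) of each transcript (columns) between drugs used at one dose (rows, first drug minus second), with a star where the adjusted p was under 0.05. The 4 rows with PROTAC FAK degrader 1 are positive and starred for all 5 transcripts.

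The genes whose pattern over the 8 group means of log2 CPM was most like that of each α-arrestin were found among genes with a mean of at least 5 CPM and a range of group means above a floor set from that of the member. For *Txnip* they were *Pdk2*, a pyruvate dehydrogenase kinase that restrains glucose oxidation (Pearson r = 0.994, Spearman rho = 1 over 8 groups), *Myh14*, a non-muscle myosin heavy chain (r = 0.991), and *Dopey2* (r = 0.988). Without the 2 groups farthest from the median (PROTAC FAK degrader 1 and BSJ-04-0146), r for *Pdk2* was 0.980 over 6 groups. *Pdk2* stood at 5.52 ± 0.211 CPM with DMSO, 20.1 ± 1.18 CPM with PROTAC FAK degrader 1, 11.9 ± 0.737 CPM with GSK215 and 5.46 ± 0.489 CPM with GSK2256098 (SD, n = 3). For *Arrdc3* they were *Nupr1*, a stress-induced chromatin protein (r = 0.996), *Ngrn* (r = 0.994) and *Kif21b*, a kinesin (r = 0.993). For *Arrdc4* they were *Slc25a27*, a mitochondrial carrier (r = 0.992), the nuclear receptor *Nr2c1* (r = 0.964) and the deacetylase *Hdac8* (r = 0.958), of which *Hdac8* fell to 0.758 without PROTAC FAK degrader 1 and GSK2256098. For *Arrdc2* they included *Acaa2*, a fatty acid oxidation enzyme (r = 0.959), and *Bcl2l11*, which encodes the death regulator BIM (r = 0.954). For *Arrdc1* they were *Msrb1* (r = 0.981), *Nsmce2* (r = 0.977) and *Gpx4* (r = 0.977), the first and last of which encode selenoproteins. The values share their libraries and scaling, and genes were picked as the highest of 847 to 8763 candidates, so that a high r is a description only. Between the α-arrestins, r was 0.90 for *Txnip* and *Arrdc4* and 0.32 for *Arrdc2* and *Arrdc3*, the lowest of the 10 pairs.

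The genes around the α-arrestins were taken from 7 lists with 65 genes, of which 55 were tested. Of the glucose-sensing factors, *Mlxip* (MondoA) and its partner *Mlx* were tested. With the kinase inhibitors their log2 fold changes were -0.11 to 0.09 and did not pass, although *Mlxip* with VS-4718 passed with library totals (0.12, adjusted p = 0.017). *Mlx* was lower with PROTAC FAK degrader 1 (-0.31, SE 0.0515, adjusted p = 1.75e-06) and GSK215 (-0.13, SE 0.0514, adjusted p = 0.0284), and *Mlxip* with GSK215 (-0.18, SE 0.0440, adjusted p = 0.000796) and BSJ-04-0146 (-0.25, SE 0.0445, adjusted p = 8.35e-06). Both calls with GSK215 were lost with library totals in place of TMM (-0.0094, adjusted p = 0.891 for *Mlx* and -0.05, adjusted p = 0.322 for *Mlxip*), and that of *Mlx* also with DESeq2 (-0.14, adjusted p = 0.0572) and without DMSO replicates 1 or 2 or GSK215 replicate 3 (adjusted p 0.0596 to 0.253). *Mlxip* with PROTAC FAK degrader 1 (0.01, adjusted p = 0.881) and *Mlx* with BSJ-04-0146 (-0.01, adjusted p = 0.89) did not pass.

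Of 9 other reported targets of carbohydrate response that were tested, 3 rose and 6 fell with PROTAC FAK degrader 1, where 66.8% of all genes passed (their median was -0.84 on the log2 scale, against 0.0045 over all genes). The lipid synthesis genes *Fasn*, the fatty acid synthase (-1.74, SE 0.0368, adjusted p = 2.27e-32), and *Elovl6*, a fatty acid elongase (-1.68, SE 0.0345, adjusted p = 8.06e-33), fell, as did *Gpd1*, the glycerol-3-phosphate dehydrogenase (-1.48, SE 0.0499, adjusted p = 6.6e-26). *Acacb*, an acetyl-CoA carboxylase, rose from 2.84 ± 0.317 to 11.1 ± 1.24 CPM (1.97, adjusted p = 5.83e-17). With GSK215 6 of the 9 fell (54.7% of all genes passed), and with BSJ-04-0146 1 rose and 3 fell (54.6%). With library totals 1 rose and 4 fell with GSK215, and 3 rose and 2 fell with BSJ-04-0146. With the kinase inhibitors 2 fell with defactinib (22.4% of all genes passed), 5 with VS-4718 (39.2%), 3 with GSK2256098 (12.5%) and 2 with IN10018 (13.3%).

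Of 12 genes of the thioredoxin and peroxiredoxin system, 3 rose and 7 fell with PROTAC FAK degrader 1 (66.8% of all genes passed), 3 rose and 8 fell with GSK215 (54.7%), and 4 rose and 5 fell with BSJ-04-0146 (54.6%). *Prdx3*, the mitochondrial peroxiredoxin, fell with these PROTACs by 0.33, 0.64 and 0.67 on the log2 scale. *Txn2*, the mitochondrial thioredoxin, had log2 fold changes of -0.14, -0.54 and -0.39, and each passed, the first not with library totals (-0.05, adjusted p = 0.159). *Prdx1* was lowest with PROTAC FAK degrader 1 (-0.79, SE 0.0433, adjusted p = 4.08e-19), and the reductase gene *Txnrd3* with GSK215 (-0.87, SE 0.0767, adjusted p = 1.28e-12). Among the kinase inhibitors, 1 of the 12 rose and 7 fell with defactinib (22.4% of all genes passed), 4 rose and 5 fell with VS-4718 (39.2%), 3 fell with GSK2256098 (12.5%) and 2 rose with IN10018 (13.3%). With library totals the genes that passed went from 8 to 5 with defactinib and from 3 to 5 with GSK2256098.

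Of 10 NEDD4 family ligases and adaptors, 4 rose and 2 fell with each PROTAC, where 66.8% (PROTAC FAK degrader 1), 54.7% (GSK215) and 54.6% (BSJ-04-0146) of all genes passed. With library totals in place of TMM, 7 rose and 1 fell with PROTAC FAK degrader 1, while 7 rose and 0 fell with GSK215 and 6 rose and 0 fell with BSJ-04-0146. With VS-4718 2 rose and 1 fell (39.2% of all genes passed), and with IN10018 1 rose and 1 fell (13.3%). Both falls were lost with library totals. With defactinib 1 fell (22.4%), and with GSK2256098 0 passed (12.5%). *Smurf1* rose with PROTAC FAK degrader 1 (0.65, SE 0.0441, adjusted p = 3.73e-16) and the adaptor *Ndfip1* with GSK215 (0.38) and BSJ-04-0146 (0.34). *Wwp2* rose by 0.31 and 0.37 with the same drugs, and the low *Hecw2* (8 to 30 counts per library) fell with PROTAC FAK degrader 1 (-0.67, adjusted p = 0.0403), while its change with VS-4718 was also -0.67 and did not pass (adjusted p = 0.0514). The call with PROTAC FAK degrader 1 was lost with DESeq2, library totals or no filter (adjusted p 0.0717 to 0.127) and without DMSO replicates 1 or 3 or PROTAC FAK degrader 1 replicate 2 (-0.67 to -0.40, adjusted p 0.0657 to 0.251).

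Among 10 reported cargo proteins and partners, the glucose transporter genes differed between drugs. *Slc2a1* (GLUT1) went from 267 ± 2.93 CPM with DMSO to 129 ± 2.82 CPM with GSK215 and 118 ± 0.487 CPM with BSJ-04-0146, changes of -1.05 (SE 0.0396, adjusted p = 1.06e-23) and -1.18 (SE 0.0400, adjusted p = 2.92e-25). With PROTAC FAK degrader 1, where *Txnip* was highest, *Slc2a1* stood at 282 ± 7.45 CPM (0.08, SE 0.0373, adjusted p = 0.0566), a difference that passed with library totals (0.16, adjusted p = 0.000122), with only the 6 libraries compared (0.07, adjusted p = 0.0184) and without PROTAC FAK degrader 1 replicate 3 (0.10, adjusted p = 0.0276). With IN10018 it rose to 343 ± 6.71 CPM. *Slc2a3* (GLUT3) was higher with PROTAC FAK degrader 1 (0.82, SE 0.0459) and IN10018 (0.54, SE 0.0463) and lower with the other 5 drugs (-0.999 with VS-4718 to -0.18 with defactinib). The receptor gene *Notch1* rose with GSK215 (2.47, SE 0.0631), BSJ-04-0146 (2.59, SE 0.0628), VS-4718 (1.31), GSK2256098 (0.75) and defactinib (0.74) and fell with PROTAC FAK degrader 1 (-0.27). That fall was lost with library totals (-0.19, adjusted p = 0.0563) and without PROTAC FAK degrader 1 replicate 1 (-0.16, adjusted p = 0.114). The iron transporter gene *Slc11a2* fell most with PROTAC FAK degrader 1 (-0.99, SE 0.0362).

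Of 6 other arrestin-fold genes tested, 5 rose and 1 fell with PROTAC FAK degrader 1, where 66.8% of all genes passed. With GSK215 1 rose and 3 fell (54.7% of all genes), with BSJ-04-0146 2 rose and 2 fell (54.6%), with VS-4718 2 rose and 1 fell (39.2%), with defactinib 3 fell (22.4%) and with IN10018 1 rose (13.3%). With library totals 2 rose and 3 fell with GSK215, and 2 rose and 1 fell with BSJ-04-0146. *Arrb1*, which encodes β-arrestin 1, rose with PROTAC FAK degrader 1 (0.94, SE 0.0425) and with IN10018 (0.74, SE 0.0428). It fell with defactinib, VS-4718, GSK215 and BSJ-04-0146 (-0.66 to -0.12). The last of these (-0.12, adjusted p = 0.0355) was lost with DESeq2, library totals or only the 6 libraries compared (-0.13 to -0.0085, adjusted p 0.053 to 0.895) and without DMSO replicates 1 or 2 or BSJ-04-0146 replicate 1 (adjusted p 0.0907 to 0.132). *Vps26a* and *Vps26c*, subunits of the retromer and retriever sorting complexes, rose with PROTAC FAK degrader 1 by 0.54 and 0.55, whereas *Sag*, at 18 to 69 counts per library, fell (-0.77). The glucocorticoid list held the receptor gene *Nr3c1* beside genes induced by glucocorticoids. Of its 6 genes tested, *Nr3c1* among them, 4 rose and 2 fell with PROTAC FAK degrader 1 (66.8% of all genes passed). *Tsc22d3*, which encodes the leucine zipper protein GILZ, rose (1.70, SE 0.0786), as did *Klf9* (0.98) and the clock gene *Per1* (0.76), whereas the kinase gene *Sgk1* fell (-1.07, SE 0.0504). With GSK215 1 of the 6 rose and 4 fell (54.7% of all genes), with BSJ-04-0146 1 rose and 3 fell (54.6%), and with VS-4718 2 rose and 3 fell (39.2%). With IN10018 2 rose (13.3%), and 1 fell with defactinib (22.4%) and 1 with GSK2256098 (12.5%). *Per1* had log2 fold changes of -0.81 with GSK215 and -0.82 with BSJ-04-0146. The gene that rose with GSK215 was *Nr3c1*, the glucocorticoid receptor gene, singled out after its values were seen (0.10, adjusted p = 0.0413). Its call was lost with DESeq2 (adjusted p = 0.122), with no filter (adjusted p = 0.183) and without DMSO replicates 1 or 3 or GSK215 replicates 1 or 3 (adjusted p 0.089 to 0.177). With library totals 1 gene in place of 2 fell with PROTAC FAK degrader 1, and with VS-4718 3 rose and 1 fell.

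**Figure D4:**
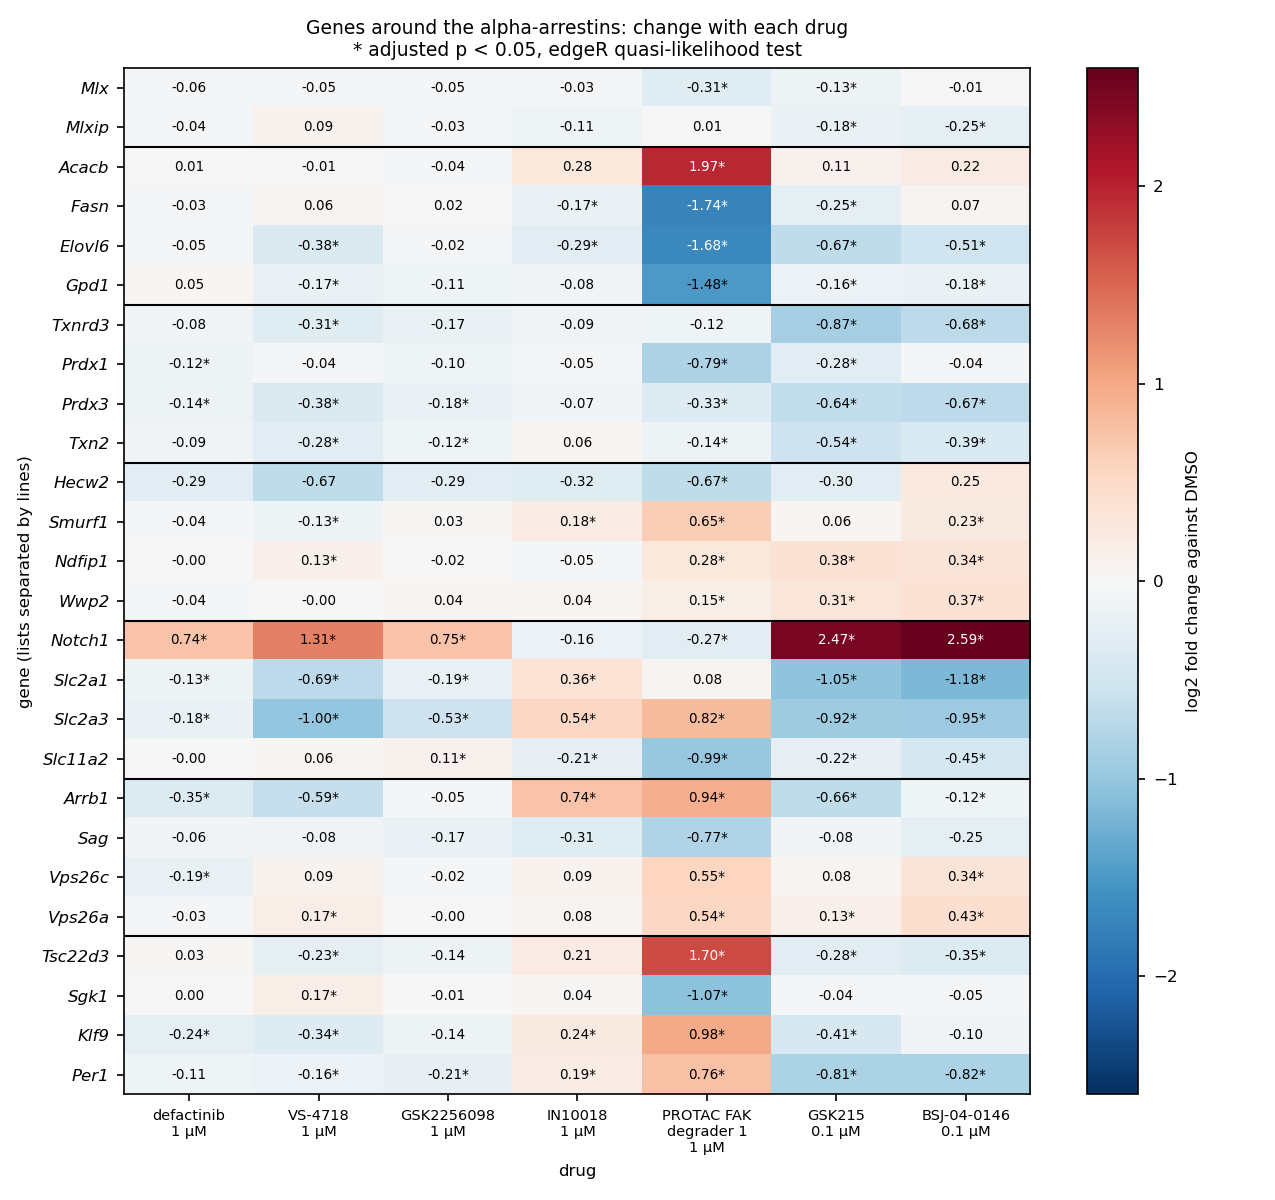
Log2 fold change against DMSO (colour and number) of the genes named from the 7 lists (rows, lists separated by lines) with each drug (columns), with a star where the adjusted p was under 0.05. *Slc2a1* is at -1.05 and -1.18 with GSK215 and BSJ-04-0146 and at 0.08 with PROTAC FAK degrader 1, while *Fasn* is at -1.74 with PROTAC FAK degrader 1.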

How the data were processed

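RNA from 24 libraries of MS03 cells was sequenced after poly(A) selection. The authors deposited raw read counts per Ensembl gene, whole numbers without normalization. The submitters' processing notes name Trimmomatic 0.36, STAR 2.5.2b, featureCounts of Subread 1.5.2 and GRCm38. The annotation release and the strand setting are not given in the sources used here. Replicate libraries differed by more than counting noise (chi-square per degree of freedom 1.80 to 9.44), so each entered as its own sample.

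One quasi-likelihood model of the 8 groups was fitted to all 24 libraries with edgeR 4.0.16 (R 4.3.3), after filterByExpr and TMM, leaving 16 residual degrees of freedom. Two-sided p-values received Benjamini-Hochberg adjustment across 16070 genes in each comparison (threshold 0.05). The SE is the absolute log2 change over the root of F. A permutation of 3 libraries against 3 could not give an exact p below 0.1. Per-length levels used the summed exon length of GENCODE M21. Alternatives were DESeq2 1.42.0, library totals, a block for replicate number, no filter, limma-trend (limma 3.58.1) on log2(CPM + 4), only the 6 libraries compared and each library left out.

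The 5 genes and the lists were chosen with earlier results of these data known. Genes named from a list were up to 4 that passed for at least 1 drug, by largest change. Like genes were the 3 with the highest Pearson r of log2 CPM (prior count 2) whose range was at least a set share of the member's, without clone or predicted names. Some genes that these rules name are not reported here. The *Gm15441* values and the motifs were chosen after the gene models had been seen. *Vps26c* is listed under an older symbol and was matched by identifier.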

Additional observations from a re-analysis of the deposited data

How the results depend on the processing

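The increases of *Txnip* with 6 drugs and of all 5 transcripts with PROTAC FAK degrader 1 passed under each of the 6 alternatives and with each library left out (the *Txnip* change with PROTAC FAK degrader 1 ran from 2.32 to 2.57). The size of the *Arrdc4* change varied more over the 6 alternatives. It ran from 1.04 to 1.76 with PROTAC FAK degrader 1, from 0.27 to 0.53 with defactinib and from 0.35 to 0.81 with GSK215, and passed in each. Of the 35 results against DMSO, DESeq2 ended 4 calls, the absence of a filter 3, limma-trend 2, the replicate block 1 and the fit of 6 libraries 1, and library totals ended 0. The cause was not tested. These were *Arrdc2* with VS-4718 (0.24 with DESeq2), *Arrdc4* with VS-4718 (0.33 with DESeq2, 0.32 without a filter, 0.17 with limma-trend and 0.32 with 6 libraries), *Arrdc1* with GSK215 (0.22 with DESeq2 and 0.22 without a filter) and *Arrdc4* with BSJ-04-0146 (0.32 with DESeq2, 0.31 without a filter, 0.17 with limma-trend). With VS-4718, 3 transcripts then passed with DESeq2 in place of 5. The share of all genes that passed is not given here for DESeq2 or for the fits with 1 library left out.

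With each library left out, the change against DMSO ran from -0.012 to 0.034 for *Arrdc1* (2 fits reversed the sign) and from -0.27 to -0.17 for *Arrdc3* with defactinib, from 0.17 to 0.30 for *Arrdc2* and 0.24 to 0.42 for *Arrdc4* with VS-4718, from 0.24 to 0.35 for *Arrdc1* and 0.16 to 0.26 for *Arrdc3* with IN10018, from 0.21 to 0.26 for *Arrdc1* and 0.20 to 0.39 for *Arrdc2* with GSK215 and from 0.29 to 0.38 for *Arrdc4* with BSJ-04-0146. The transcripts passing ran from 3 to 5 with VS-4718 and from 1 to 3 with IN10018. Between drugs, signs turned for *Arrdc2* between IN10018 and defactinib (-0.11 to 0.048) and *Arrdc1* between IN10018 and VS-4718 (-0.10 to 0.087), neither of which passed. Of the 55 results between drugs, DESeq2 ended 2 calls, the absence of a filter 2 and library totals 1 (*Arrdc3* between GSK2256098 and VS-4718, 0.17), while library totals and limma-trend each added 1.

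Counts in the lists, both directions together, moved by over 1.5 times in 10 of 196 cases, as from 8 to 5 for the thioredoxin system with defactinib and from 3 to 5 with GSK2256098 under library totals, from 5 to 3 for the glucocorticoid genes with VS-4718 (DESeq2 or no filter), from 2 to 1 for the NEDD4 list with IN10018 (DESeq2, library totals or no filter), and for the MondoA and ChREBP factors from 0 to 1 with VS-4718 (library totals) and from 2 to 1 (DESeq2) or 0 (library totals) with GSK215. Counted by direction, 18 of 98 counts moved so with library totals, 8 with DESeq2, 6 without a filter and 1 with the replicate block. On log2(CPM + 4), 1 to 3 of the 3 genes most like each transcript were the same.

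The numbers of replicates did not pair the libraries (median correlation of same-numbered deviations -0.01, 10 of 84 pairs over 0.1, 3 of 24 libraries closest to their own number). With the replicate block, *Arrdc4* with BSJ-04-0146 (0.33, adjusted p = 0.0517) lost its call, and no other call of the 5 transcripts changed. Depth limits *Arrdc4*, at 63 to 289 counts per library, and the leave-one-out fits for 2 libraries assume the spread of the other groups.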
